A study of Rattus norvegicus with 12 samples.

Results

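The 8 heme synthesis enzymes of the rat, Alas1, Alas2, Alad, Uros, Urod, Cpox, Ppox and Fech, were followed in bone from around dental mini-implants. They were chosen by name among the 33801 genes of the deposited expression table. There, 7 carry their symbol, and the row of Alas2 carries only its identifier ENSRNOG00000000167 and was matched by its deposited description. They cover every step of the pathway except the third, which is not analysed here. All 8 reached 1 FPKM (fragments per kilobase of gene, scaled by depth) in at least 3 libraries and were tested among 15268 genes.

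The bone came from wild-type rats with implants at the site of the maxillary first molar. The 4 groups of 3 libraries were bone beside loaded implants of Nb3 alloy (Zr58Cu25Al14Nb3), static implants of Nb3 alloy, loaded implants of titanium (cpTi) and static implants of cpTi. Loading was cyclic and lasted 2 weeks. All groups share the wild-type genotype and the presence of an implant, and polyadenylated RNA was sequenced from tissue within a 4 mm diameter. The sources used here do not give age, sex or the load applied. Nothing in the labels says that the 3 libraries of a group came from separate animals, so p-values measure only the spread between these libraries, which may be technical. The design asks how loading changed expression beside each material.

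Heme is an iron-containing ring that carries oxygen in hemoglobin and serves as a cofactor in cytochromes, catalase and peroxidases. Its synthesis begins and ends in mitochondria and passes through the cytosol in between. Most cells make heme with ALAS1 setting the rate, whereas precursors of red cells, which mature in the marrow spaces of bone, use the separate X-linked gene ALAS2 and raise the later enzymes as they fill with hemoglobin.

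Reads on genes ran from 12911912 to 22308428 per library. Libraries of loaded Nb3 alloy were unlike the other 9, with correlations of 0.731 to 0.866 across tested genes, against 0.932 to 0.969 among the other 9. Mitochondrially encoded genes took 11.3% to 24.3% of reads in loaded Nb3 alloy libraries, the most in replicate 2, against 4.31% to 6.86% elsewhere. The osteoblast product Bglap (osteocalcin), a check on the bone label, was present throughout and had 5146, 898 and 4942 FPKM in loaded Nb3 alloy libraries. Beside loaded against static Nb3 alloy, 15 of 15 red cell membrane markers, 8 of 8 tested neutrophil precursor markers and 10 of 10 cell cycle markers were called lower, and 0 in each list higher. Some red cell and neutrophil markers, such as Rhag and Mpo, were under 1 FPKM in every loaded Nb3 alloy library. They met the filter only through other groups, so their direction was fixed in advance. Of the fibroblast and vessel list 7 of 10 were called higher, of the skeletal muscle list 4 of 7, of the osteoblast list 3 of 10 and of the macrophage list 2 of 8. Over all tested genes 25.2% were called lower and 20.7% higher, and the osteoblast and macrophage shares lie near 20.7%. Without loaded Nb3 alloy replicate 2 the number called higher was 0 in the skeletal muscle list, 9 in the osteoblast list and 1 in the macrophage list. In that setting 6827 of all tested genes were called in either direction, against 6996 with all libraries. With all libraries the osteoblast list had a median difference of 0.83 and 0 of 10 genes below 0. Its count of calls thus depended on replicate 2. In bulk tissue, fewer cells of a type and less RNA per cell cannot be told apart.

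All 8 enzymes fell beside loaded Nb3 alloy relative to static Nb3 alloy, and the libraries of the groups did not overlap for any of them. The step was smallest for Alas1, whose mean FPKM was 1.95-fold lower under loading, and greatest for Alas2, at 39.4-fold lower. By adjusted p under 0.05, 8 of 8 were called lower, where 25.2% of all tested genes were called lower and 45.8% in either direction. For groups that did not overlap, with the loaded one lower, the share of all tested genes was 28%. The members' median difference in log2(FPKM + 1) was −2.89, against −0.02 over all tested genes. Differences on this scale understate the change of genes with low values.

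Alas1 (ENSRNOG00000056596, chromosome 8, 106876514 to 106889917, minus strand in the deposited table) encodes the housekeeping form of 5-aminolevulinate synthase, the first step of the pathway. It had 10.7, 19.7 and 11.5 FPKM beside loaded Nb3 alloy, against 22.3, 24.2 and 35.0 FPKM beside static Nb3 alloy. Beside loaded cpTi it had 16.0, 19.0 and 18.8 FPKM, against 29.8, 28.0 and 23.0 FPKM beside static cpTi. Every loaded library was below every static library of its own material, and loaded Nb3 alloy replicate 2 was above all loaded cpTi libraries. The loading difference beside Nb3 alloy was −0.94 in log2(FPKM + 1) (SE 0.23, limma adjusted p = 0.00588).

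Alas2 (chromosome X, 19463171 to 19486519, plus strand) encodes the red cell form of the same enzyme. It had 8.25, 44.0 and 2.43 FPKM beside loaded Nb3 alloy, against 833, 553 and 770 FPKM beside static Nb3 alloy. Beside loaded cpTi the values were 900, 357 and 805 FPKM, against 817, 939 and 694 FPKM beside static cpTi. Loaded Nb3 alloy libraries were below all others and differed widely among themselves, with replicate 2 the highest and replicate 3 the lowest. They rest on 265, 1547 and 82 reads, against 11197 to 26201 reads in each of the other 9 libraries. The difference beside Nb3 alloy was −5.98 (SE 0.72, limma adjusted p = 9.10e-05), −6.97 without loaded Nb3 alloy replicate 2 and −5.12 without its replicate 3.

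**Figure D1:**
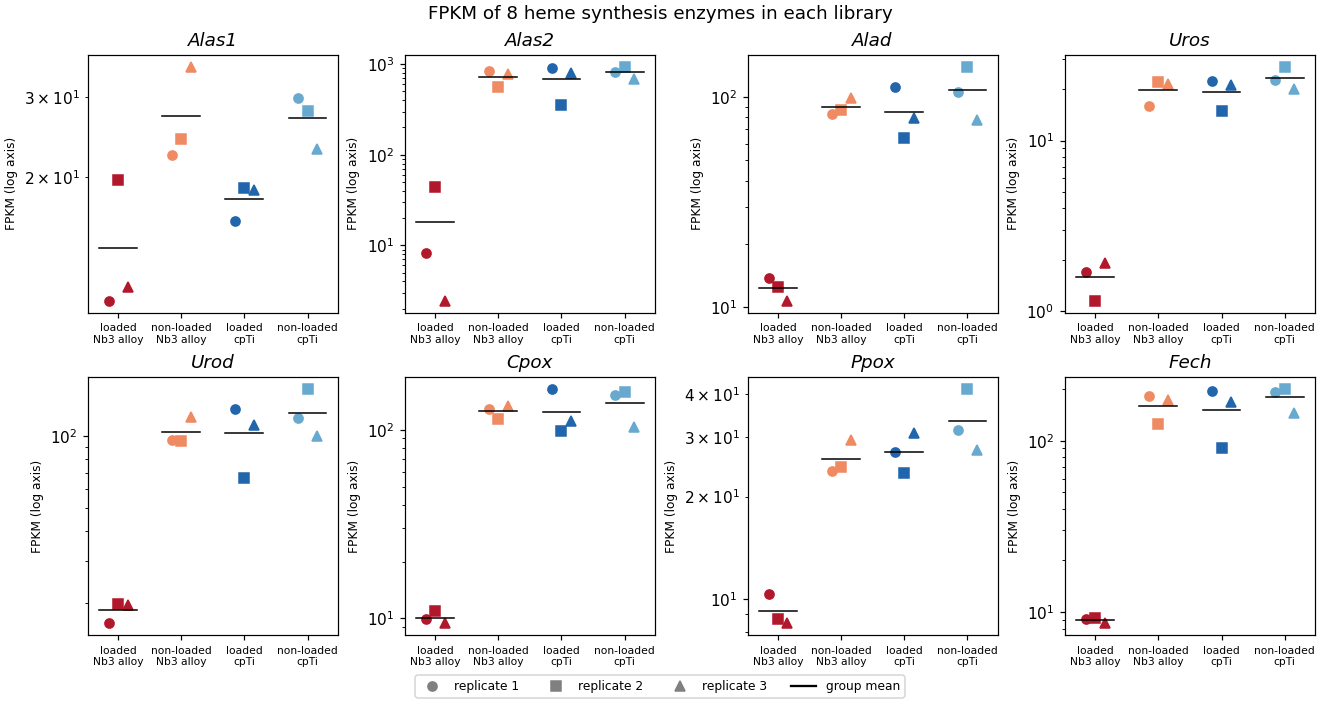
FPKM on a log axis of each of the 8 enzymes in each of 12 libraries, with groups of 3 along the horizontal axis, a marker shape for each replicate number and a bar at the group mean. The loaded Nb3 alloy libraries lie below all others for 7 enzymes, whereas for Alas1 they reach the range of the loaded cpTi libraries.

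The cytosolic steps gave the same order of groups. Alad (ENSRNOG00000015206, chromosome 5, 75961993 to 75972474, minus strand) encodes the dehydratase that joins a pair of 5-aminolevulinate molecules into porphobilinogen. It had 13.8, 12.4 and 10.7 FPKM beside loaded Nb3 alloy, against 82.8, 86.3 and 98.7 FPKM beside static Nb3 alloy. Beside loaded cpTi it had 112, 63.5 and 79.6 FPKM, against 105, 139 and 78.0 FPKM beside static cpTi. The loaded Nb3 alloy libraries were low and close together, and the groups beside cpTi overlapped. The difference beside Nb3 alloy was −2.77 (SE 0.23, limma adjusted p = 6.79e-06).

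Uros (ENSRNOG00000017810, chromosome 1, 188490323 to 188512249, minus strand) encodes the synthase that closes the ring to uroporphyrinogen III. In loaded Nb3 alloy libraries it had 1.70, 1.15 and 1.92 FPKM, against 15.9, 22.0 and 21.4 FPKM in static Nb3 alloy libraries. In loaded cpTi libraries it had 22.3, 14.8 and 21.1 FPKM, against 22.7, 27.1 and 20.1 FPKM in static cpTi libraries. It was the lowest member in all 3 loaded Nb3 alloy libraries, with 80, 59 and 95 reads, and again the groups beside cpTi overlapped. The difference beside Nb3 alloy was −3.00 (SE 0.19, limma adjusted p = 8.98e-07).

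Urod (ENSRNOG00000018211, chromosome 5, 130455217 to 130468808, minus strand) encodes the decarboxylase that trims the side chains of that ring, the last cytosolic step. It had 16.5, 19.8 and 19.8 FPKM beside loaded Nb3 alloy, against 96.8, 95.3 and 121 FPKM beside static Nb3 alloy. Loaded cpTi libraries had 130, 67.1 and 111 FPKM, against 120, 157 and 99.8 FPKM in static cpTi libraries. Its loaded Nb3 alloy libraries were all low with little spread. Urod differed beside Nb3 alloy by −2.41 (SE 0.24, limma adjusted p = 2.30e-05).

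The last steps take place in mitochondria. Cpox (ENSRNOG00000001654, chromosome 11, 41936591 to 41946746, minus strand) encodes the oxidase that makes protoporphyrinogen. It had 9.89, 10.9 and 9.40 FPKM beside loaded Nb3 alloy, against 129, 114 and 134 FPKM beside static Nb3 alloy. With loaded cpTi the values were 165, 98.4 and 112 FPKM, against 152, 159 and 103 FPKM with static cpTi. Loaded Nb3 alloy libraries were tightly grouped far below the rest. Cpox differed beside Nb3 alloy by −3.52 (SE 0.21, limma adjusted p = 6.49e-07).

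Ppox (ENSRNOG00000003567, chromosome 13, 83664891 to 83701805, minus strand) encodes the oxidase that makes protoporphyrin. It had 10.4, 8.72 and 8.47 FPKM beside loaded Nb3 alloy, against 23.7, 24.5 and 29.4 FPKM beside static Nb3 alloy. Beside loaded cpTi it had 27.1, 23.4 and 30.8 FPKM, against 31.4, 41.4 and 27.4 FPKM beside static cpTi. The loaded Nb3 alloy libraries were below all others, by less than for the neighbouring steps. The difference beside Nb3 alloy was −1.40 (SE 0.16, limma adjusted p = 7.17e-05). The span of Ppox overlaps 4 other genes in the deposited table, among them Fcer1g on the same strand (mean 43.4 FPKM over 12 libraries) and B4galt3 (19.8 FPKM) and Adamts4 (3.72 FPKM) on the opposite strand, so its level is uncertain. Fcer1g had 42.0, 83.6 and 24.0 FPKM beside loaded Nb3 alloy, against 40.8, 42.1 and 61.3 FPKM beside static Nb3 alloy, and these groups overlapped. Adamts4 had 13.2, 16.4 and 2.91 FPKM beside loaded Nb3 alloy, against 0.452, 1.11 and 1.15 FPKM beside static Nb3 alloy, higher under loading in all 3 libraries and thus opposite to Ppox.

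Fech (ENSRNOG00000018053, chromosome 18, 57945122 to 57979348, minus strand) encodes ferrochelatase, which inserts iron to complete heme. It had 9.10, 9.18 and 8.57 FPKM beside loaded Nb3 alloy, against 181, 125 and 172 FPKM beside static Nb3 alloy. Beside loaded cpTi it had 194, 90.2 and 168 FPKM, against 193, 200 and 146 FPKM beside static cpTi. Its loaded Nb3 alloy libraries lay within 1 FPKM of each other, and all other libraries were far above them. The difference beside Nb3 alloy was −3.99 (SE 0.26, limma adjusted p = 1.06e-06), with a mean 17.8-fold lower.

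Fold differences in mean FPKM beside Nb3 alloy thus ran unevenly along the pathway, at 7.27-fold lower for Alad, 12.5-fold for Uros, 5.58-fold for Urod, 12.5-fold for Cpox and 2.82-fold for Ppox. Levels per length also changed order. Beside static Nb3 alloy Alas2 averaged 719 ± 147 FPKM (SD, n = 3), with no library in the range of the next member, Fech, at 159 ± 30.1 FPKM. Fech, Cpox (126 ± 10.1), Urod (104 ± 14.3) and Alad (89.3 ± 8.35 FPKM) each overlapped the next in that order, and the 3 lowest were Alas1, Ppox and Uros. Beside loaded Nb3 alloy the order by mean began with Urod at 18.7 ± 1.93 FPKM, Alas2 at 18.2 ± 22.5 FPKM and Alas1 at 14.0 ± 5.01 FPKM. The place of Alas2 rests on replicate 2: it ranked 1 of 8 there and 7 of 8 in replicates 1 and 3, and its mean without replicate 2 was 5.34 FPKM. With all libraries each member overlapped the next down to Fech at 8.95 ± 0.330 FPKM, and only Uros at 1.59 ± 0.400 FPKM was separate from its neighbour.

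The summed FPKM of the 8 enzymes was 80.2, 126 and 72.7 beside loaded Nb3 alloy, against 1385, 1044 and 1381 beside static Nb3 alloy. Beside loaded cpTi the sum was 1567, 733 and 1346 FPKM, against 1472, 1692 and 1192 FPKM beside static cpTi. Loaded cpTi replicate 2 was the lowest library outside the loaded Nb3 alloy group. Alas2 made up 10.3%, 35.0% and 3.34% of the sum in loaded Nb3 alloy libraries, against 48.6% to 60.2% in the other 9. Without Alas2, the sum was still far lower, at 70.3 to 81.9 FPKM beside loaded Nb3 alloy against 376 to 753 FPKM in the other 9 libraries.

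The balance between the synthases moved with this. The ratio of Alas2 to Alas1 FPKM was 0.772, 2.23 and 0.212 beside loaded Nb3 alloy, against 37.3, 22.8 and 22.0 beside static Nb3 alloy. Beside loaded cpTi it was 56.1, 18.8 and 42.8, against 27.4, 33.5 and 30.2 beside static cpTi. Alas1 exceeded Alas2 in loaded Nb3 alloy replicates 1 and 3 and in no other library. The mean log2 ratio was −0.48 ± 1.70 beside loaded Nb3 alloy and 4.73 ± 0.43 beside static Nb3 alloy (SD, n = 3 each), a difference of −5.22. The two-sided exact permutation test gave p = 0.1, the smallest that 3 against 3 libraries allow. Beside loaded against static cpTi the log2 ratio differed by 0.23 (exact permutation p = 0.7), and this was −0.09 without loaded cpTi replicate 1.

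**Figure D2:**
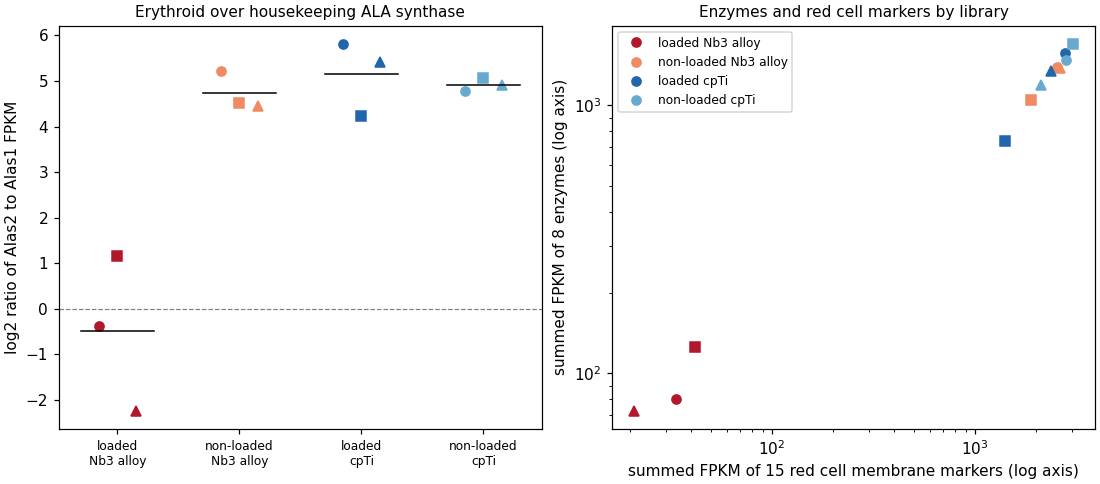
Left, the log2 ratio of Alas2 to Alas1 FPKM in each library by group, with a bar at the group mean and a dashed line where both are equal. Right, the summed FPKM of the 8 enzymes against the summed FPKM of 15 red cell membrane markers, both on log axes, 1 point per library with a marker shape for each replicate number. The loaded Nb3 alloy libraries are the 3 points at 72.7 to 126 FPKM of the enzymes and 21.0 to 41.9 FPKM of the markers.

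Red cell membrane markers moved with the enzymes. Their summed FPKM ran from 21.0 to 41.9 beside loaded Nb3 alloy, against 1882 to 2618 beside static Nb3 alloy, 1409 to 2786 beside loaded cpTi and 2121 to 3064 beside static cpTi. The defining marker Slc4a1 (band 3) was low but not at 0, with 5.19 ± 3.61 FPKM beside loaded Nb3 alloy, against 711 ± 235 FPKM beside static Nb3 alloy (SD, n = 3 each). Despite its name, the list also holds red cell genes outside the membrane, such as Car1 and Hemgn. Car1 (carbonic anhydrase) was at 0 in loaded Nb3 alloy replicate 3, and Icam4 (a blood group protein) in replicates 2 and 3. The part of these cells in the fall of the enzymes was not tested.

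Relative to the mean log2(FPKM + 1) of the 15 markers in the same library, Alas2 differed by −0.53 between loaded and static Nb3 alloy, and the groups overlapped (exact permutation p = 0.7). The other 7 enzymes were higher relative to the markers, without overlap, by 1.45 for Fech, 1.93 for Cpox, 2.44 for Uros, 2.68 for Alad, 3.03 for Urod, 4.05 for Ppox and 4.51 for Alas1. Each of these 7 had an exact permutation p of 0.1, the smallest possible. Alas2 thus kept closest to the red cell markers and Alas1 was farthest from them.

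Promoter windows were read for 7 of 8 members from RefSeq (GRCr8), covering 250 bases before the annotated start and 30 after it, with Cpox missing. Motifs were searched on both strands: the GATA motif (AGATAA or AGATAG, also TGATAA or TGATAG), the site of NRF1 (the letters in capitals in the Alas1 window), the E-box CACGTG, the GC box GGGCGG, and the CACCC box as CCACACCC or as CCCCACCC. The windows of Alas1, the member that fell least, and of Alas2 and Fech, the members that fell most, are shown, with these motifs in capitals.
Alas1, chr8:115768613-115768892, minus strand: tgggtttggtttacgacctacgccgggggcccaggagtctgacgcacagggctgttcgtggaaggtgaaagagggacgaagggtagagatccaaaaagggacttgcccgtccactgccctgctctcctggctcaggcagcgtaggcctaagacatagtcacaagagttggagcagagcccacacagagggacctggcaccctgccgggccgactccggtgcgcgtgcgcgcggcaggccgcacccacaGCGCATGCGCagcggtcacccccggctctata
Alas2, chrX:22895200-22895479, plus strand: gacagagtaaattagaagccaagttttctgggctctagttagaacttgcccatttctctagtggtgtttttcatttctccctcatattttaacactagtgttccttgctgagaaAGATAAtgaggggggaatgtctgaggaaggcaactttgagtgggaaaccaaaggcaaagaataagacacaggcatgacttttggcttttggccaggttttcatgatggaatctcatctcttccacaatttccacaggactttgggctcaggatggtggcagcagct
Fech, chr18:60248496-60248775, minus strand: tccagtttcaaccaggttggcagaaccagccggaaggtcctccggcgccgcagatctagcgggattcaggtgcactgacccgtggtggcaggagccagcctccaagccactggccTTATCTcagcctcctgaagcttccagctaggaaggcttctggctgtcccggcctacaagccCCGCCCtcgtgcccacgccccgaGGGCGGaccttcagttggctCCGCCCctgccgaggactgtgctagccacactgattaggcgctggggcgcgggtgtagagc
The Alas1 window holds 1 NRF1 site that begins 2 bases before the start, as 0.84% of 33469 windows do. The Alas2 window holds 1 GATA motif, 136 bases before the start used here, as 29% of windows do. The Fech window also holds 1 GATA motif, 135 bases before its start. In Fech it is read on the reverse strand as TTATCT, and the other 3 capital runs there are GC boxes, which 32.2% of windows hold. The Alas2 start used here lies inside the RefSeq span of the gene and not at its outermost end, as do those of Uros and Ppox. The windows of these genes may therefore be internal sequence and not the promoter. For this reason the GATA positions in Alas2 and Fech cannot be compared. Among the other windows, Alad holds 2 E-boxes (6.18% of windows have one) and 6 GC boxes, some overlapping, Urod holds 1 E-box and 3 GC boxes, and Uros and Ppox hold none of the 5 motifs. No window of the 7 holds a CACCC box (11.8% of windows). These matches describe the letters of the windows alone.

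Loading beside cpTi gave 0 of 8 calls, where 0.00655% of all tested genes (1 gene) were called. At an unadjusted p under 0.05 there was 1 member, Alas1, where 6.96% of tested genes were, and limma-voom on recovered reads also called 0. All 8 differences were below 0, from −0.16 for Cpox to −0.56 for Alas1, with a median of −0.31, against −0.03 over all tested genes. Without loaded cpTi replicate 2 the median was −0.06, with Cpox at −0.003, Urod at −0.04, Uros at −0.09, Alad at −0.15, Ppox at −0.18 and Alas1 at −0.60. Alas1 averaged 17.9 ± 1.64 FPKM beside loaded cpTi and 26.9 ± 3.52 FPKM beside static cpTi (SD, n = 3 each). It was the only member without overlap, on the lower side, where 9.4% of tested genes were, and its difference was −0.56 (SE 0.23, limma unadjusted p = 0.0312, adjusted p = 0.689).

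Loaded cpTi replicate 2 was the lowest library of its group for the other 7 members. Alas2 averaged 687 ± 290 FPKM beside loaded cpTi and 817 ± 122 FPKM beside static cpTi, a difference of −0.35 (SE 0.72, limma adjusted p = 0.946), which was 0.07 without that library. Fech averaged 151 ± 54.2 FPKM beside loaded cpTi and 180 ± 29.6 FPKM beside static cpTi, a difference of −0.31 (SE 0.26, limma adjusted p = 0.842), which was 0.02 without that library. The same library had the lowest summed red cell markers outside loaded Nb3 alloy, 1409 FPKM, and its part in these differences is given by the values without it.

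**Figure D3:**
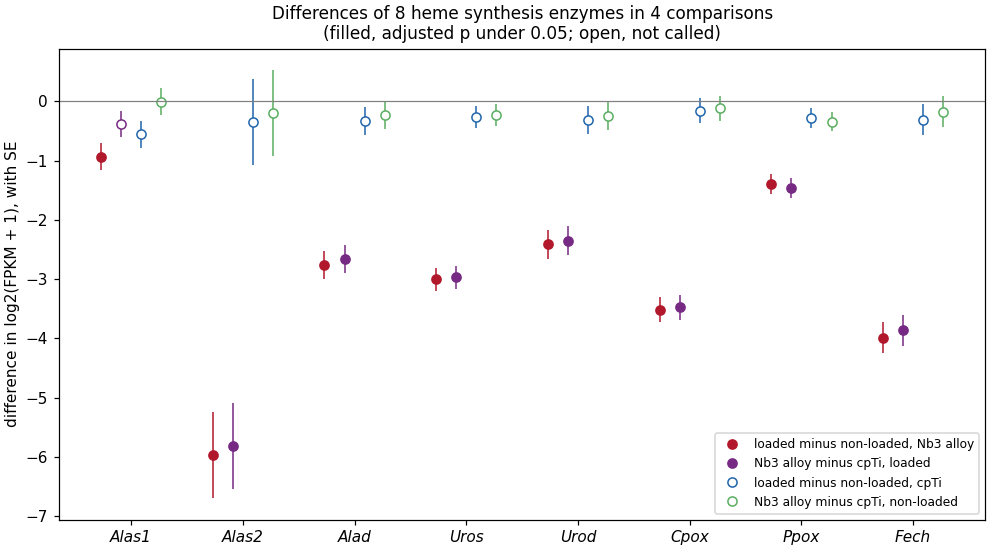
Difference in log2(FPKM + 1), with its SE, for each of the 8 enzymes in 4 comparisons of 3 against 3 libraries, filled where the adjusted p was under 0.05 and open otherwise. The 2 comparisons with loaded Nb3 alloy on top share those libraries and lie between −0.38 and −5.98, and the other 2 lie between −0.56 and −0.01 with no call.

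Under loading, Nb3 alloy was set against cpTi, a comparison that shares its loaded Nb3 alloy libraries with the first. Here 7 of 8 enzymes were called lower, where 18.9% of tested genes were called lower, and the same 7 did not overlap, where 25.5% of tested genes were lower without overlap. The differences called were −5.82 for Alas2 (SE 0.72, limma adjusted p = 0.000187), −3.86 for Fech, −3.48 for Cpox, −2.97 for Uros, −2.66 for Alad, −2.35 for Urod and −1.46 for Ppox. Alas1 differed by −0.38 (SE 0.23, limma adjusted p = 0.213) and its groups overlapped. Without loaded Nb3 alloy replicate 2, the library with the most Alas1 in its group, Alas1 was called lower at −0.64 (adjusted p = 0.0260).

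Without loading, Nb3 alloy against cpTi gave 0 of 8 calls, and 0% of all tested genes were called. At an unadjusted p under 0.05 there were 0 members as well, where 3.08% of tested genes were, and limma-voom called 0. Every member overlapped between the static groups (4.41% of tested genes were lower without overlap), with differences from −0.34 for Ppox (SE 0.16, limma unadjusted p = 0.0602) to −0.01 for Alas1. Fech averaged 159 ± 30.1 FPKM beside static Nb3 alloy and 180 ± 29.6 FPKM beside static cpTi (SD, n = 3 each).

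The difference between the loading effects of the materials was tested as an interaction, and 7 of 8 members were called lower, where 11.8% of tested genes were. The loading effect beside Nb3 alloy minus that beside cpTi was −5.63 for Alas2, −3.68 for Fech, −3.36 for Cpox and −2.74 for Uros. It was −2.43 for Alad, −2.10 for Urod and −1.12 for Ppox. For Alas1 it was −0.38 (SE 0.32, limma adjusted p = 0.442), so a difference between materials in its response to loading was not shown.

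The genes around the pathway were counted in lists chosen with earlier results of these data known. For loading beside Nb3 alloy, 14 of 20 genes of mitochondrial transport and assembly fell and 1 rose (median −1.02), where 25.2% of all tested genes fell and 20.7% rose. Without loaded Nb3 alloy replicate 2 the counts were 15 and 2. The mitochondrial iron importer Slc25a37 (mitoferrin) averaged 7.39 ± 2.81 FPKM beside loaded Nb3 alloy and 198 ± 39.0 FPKM beside static Nb3 alloy, a difference of −4.60 (SE 0.29, limma adjusted p = 8.63e-07). Abcb10, a transporter that binds mitoferrin, averaged 6.04 ± 0.173 FPKM beside loaded Nb3 alloy and 69.0 ± 11.9 FPKM beside static Nb3 alloy (difference −3.30). Tspo2, a red cell relative of the translocator protein, differed by −4.77 and Fam210b, a mitochondrial protein of red cell precursors, by −2.47. Tspo2 had 0, 0.802 and 0 FPKM in loaded Nb3 alloy libraries. It met the filter only through other groups, so its direction was fixed in advance. The list also held genes that were not called, among them Tspo, at 113 ± 56.6 FPKM beside loaded Nb3 alloy and 165 ± 53.0 FPKM beside static Nb3 alloy, and Suclg1, a subunit of succinyl-CoA ligase, at 41.2 ± 2.87 and 35.4 ± 8.99 FPKM in the same order. Pgrmc1, a heme-binding membrane protein, was the 1 that rose with all libraries, by 0.96.

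Of 15 tested regulators, 10 fell and 2 rose (median −1.73), where 25.2% of all tested genes fell and 20.7% rose. The red cell transcription factors Klf1 and Gata1 averaged 1.03 ± 0.700 and 0.431 ± 0.265 FPKM beside loaded Nb3 alloy, against 103 ± 9.95 and 46.3 ± 4.92 FPKM beside static Nb3 alloy. Their differences were −5.73 and −5.06, that of Tal1, another blood cell factor, was −3.92 and that of Epor, the erythropoietin receptor, −3.93. Gata1 was under 1 FPKM in every loaded Nb3 alloy library and met the filter only through other groups, so its direction was fixed in advance. Nfe2l2, a factor of the oxidative stress response, rose by 0.74 (limma adjusted p = 0.0138), and Aco1, an iron-responsive RNA-binding protein, by 0.46 (limma adjusted p = 0.0395). Without loaded Nb3 alloy replicate 2 the list had 11 lower and 1 higher. Lmo2, a partner of Tal1 (32.3 ± 15.4 FPKM beside loaded Nb3 alloy and 35.3 ± 3.64 FPKM beside static Nb3 alloy), was not called.

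All 6 tested genes of the globin list, 5 globin chains and the chaperone Ahsp, fell (median −4.98), where 25.2% of all tested genes fell. Among them, Hbb-bs and Hbe1 were at 0 in every loaded Nb3 alloy library and averaged only 3.36 and 1.07 FPKM beside static Nb3 alloy. They met the filter only through other groups, so their direction was fixed in advance. The list has 10 genes with a row in the table, of which Hbe2 was at 0 in every library. Ahsp, which shields free alpha globin, averaged 5.28 ± 3.15 FPKM beside loaded Nb3 alloy and 450 ± 117 FPKM beside static Nb3 alloy, a difference of −6.30 (SE 0.43, limma adjusted p = 1.50e-06). Hbb-b1, a beta globin, had 31.3, 231 and 21.7 FPKM in the loaded Nb3 alloy libraries, against 1795, 1760 and 2271 FPKM in the static ones, and replicate 2 stood highest of the loaded group as it did for Alas2. Globin genes are near-identical copies, so how reads were divided among them is uncertain. The ratio of Hba-a2 (an alpha globin) to Alas2 FPKM was 40.7, 50.9 and 85.4 beside loaded Nb3 alloy, against 21.2 to 27.1 in the other 9 libraries.

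Heme export, uptake, binding and breakdown had 7 of 15 genes called lower and 3 higher (median −0.71), where 25.2% of all tested genes were lower and 20.7% higher, so the share that was higher was near that of all genes. Blvrb, a biliverdin reductase abundant in red cells, differed by −2.37, Cd163, the macrophage receptor for hemoglobin bound to haptoglobin, by −2.31 and the heme exporter Flvcr1 by −0.71. Hmox2, the constitutive heme oxygenase, rose by 0.58. The inducible Hmox1 had 49.1, 121 and 34.2 FPKM beside loaded Nb3 alloy, against 99.1, 79.4 and 119 FPKM beside static Nb3 alloy, and the groups overlapped (limma adjusted p = 0.262).

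Among 16 tested hemoproteins other than globins, 4 fell and 6 rose (median 0.21), where 25.2% of all tested genes fell and 20.7% rose, so the share that fell was near that of all genes. Those that fell were led by the white cell peroxidases Mpo (difference −9.04), which is also in the neutrophil precursor list, and Epx (−6.30), of eosinophils. Mpo was under 1 FPKM in every loaded Nb3 alloy library and met the filter only through other groups, so its direction was fixed in advance. Nos3, the nitric oxide synthase of vessel lining, averaged 26.2 ± 9.96 FPKM beside loaded Nb3 alloy and 2.69 ± 1.13 FPKM beside static Nb3 alloy, a rise of 2.85 (SE 0.31, limma adjusted p = 3.93e-05). Cyc1, cytochrome c1 of the respiratory chain, was not called, with 78.3 ± 9.61 FPKM beside loaded Nb3 alloy and 89.2 ± 12.8 FPKM beside static Nb3 alloy. In these 5 lists 0 genes were called for loading beside cpTi or for the material without loading.

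**Figure D4:**
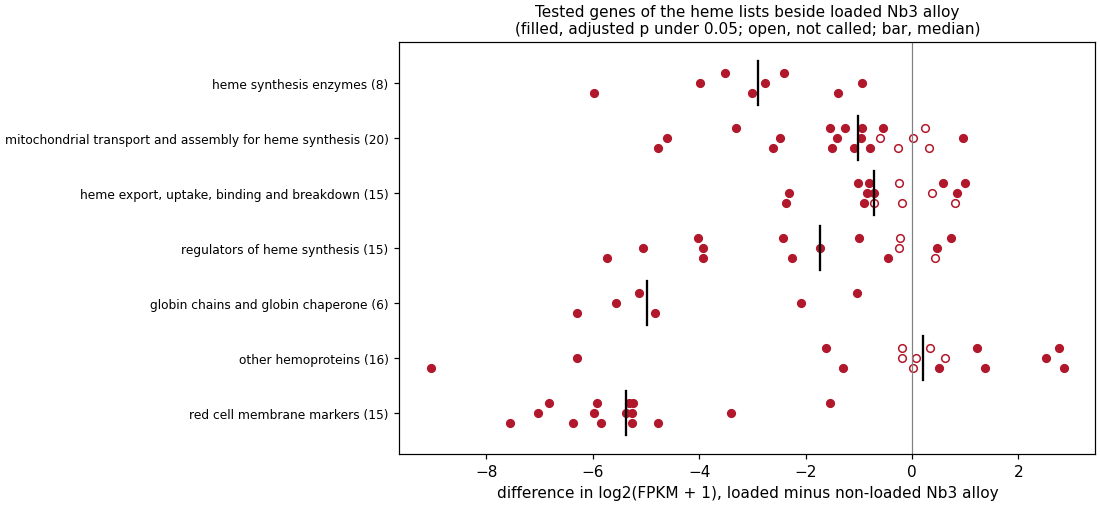
Difference in log2(FPKM + 1) between loaded and static Nb3 alloy for each tested gene of the 8 enzymes and 6 lists, filled where called and open where not, with a bar at each median. The medians run from −5.38 for red cell membrane markers through −2.89 for the 8 enzymes to 0.21 for other hemoproteins.

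Under loading, Nb3 alloy against cpTi, 14 genes of mitochondrial transport and assembly were called lower and 1 higher, and 9 regulators lower and 1 higher. In the globin list 6 were lower (5 chains and Ahsp) and 0 higher, in export, uptake and breakdown 6 lower and 2 higher, and among other hemoproteins 4 lower and 5 higher. The 6 globin list genes include Hbb-bs and Hbe1, which were at 0 in every loaded Nb3 alloy library. Tspo2, Gata1 and Mpo, counted as lower in their lists, were under 1 FPKM in each of those libraries. Over all tested genes 18.9% were lower and 14.7% higher. Without loaded Nb3 alloy replicate 2 the counts lower and higher were 13 and 2 in the mitochondrial list and 10 and 1 among regulators. They were 5 and 0 in the globin list, 5 and 3 in export, uptake and breakdown and 4 and 3 among other hemoproteins.

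In the interaction 11 mitochondrial genes were called lower and 1 higher, 8 regulators lower and 0 higher, and 4 genes of the globin list lower and 0 higher. Export, uptake and breakdown had 3 lower and 2 higher, and other hemoproteins 4 lower and 3 higher, where 11.8% of all tested genes were lower and 8.42% higher. Without loaded Nb3 alloy replicate 2 the interaction counts lower and higher were 10 and 1 in the mitochondrial list and 9 and 0 among regulators. They were 4 and 0 in the globin list, 4 and 2 in export, uptake and breakdown and 4 and 2 among other hemoproteins.

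Outside the loaded Nb3 alloy group, how the enzymes varied from library to library was described over the other 9 libraries, pooled from 3 groups, in log2(FPKM + 1). Over 28 member pairs, Alas2 and Fech were closest, with Pearson r = 0.987 (exact permutation p = 3.86e-05, Benjamini-Hochberg adjusted 0.00108) and Spearman rho = 0.967 (exact permutation p = 0.000165, adjusted 0.00231). The r was 0.921 without the 2 libraries farthest from the median of Alas2, and 0.985 on deviations from group means. Alas1 and Alas2 gave r = 0.214 (exact permutation p = 0.593, adjusted 0.593) and rho = −0.033 (exact permutation p = 0.948, adjusted 0.948). For this pair r was 0.521 without the 2 libraries farthest from the median of Alas1, and −0.033 on deviations from group means. The 9 libraries share their tissue and scaling, and loaded cpTi replicate 2 was the lowest of the 9 for both Alas2 and Fech.

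By likeness over the same 9 libraries (Pearson r, as a description), the tested genes nearest to Alas2 were Bnip3l (0.987), Mkrn1 (0.984), Slc25a39 (0.981), Ypel5 (0.980) and Bpgm (0.971). Nearest to Fech were Slc25a39 (0.987), Ypel5 (0.984), Slc25a37 (0.981), Slc16a10 (0.980) and Hemgn (0.978). Alas1 had a different set of neighbours, Tmem150b (0.983), Alg8 (0.960), Ero1b (0.950) and Fancd2 (0.946). The first of the nearest genes were Rnf187 (0.974) for Alad, Brd9 (0.984) for Uros, Prdx2 (0.975) for Urod, E2f4 (0.974) for Cpox and Aars1 (0.953) for Ppox.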

How the data were processed

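The authors deposited 1 table of FPKM covering 33801 genes and 12 libraries. Per the submitters' processing notes, the tools were DESeq2 1.20.0, CASAVA 1.8, HISAT2 2.0.5, fastp and featureCounts 1.5.0-p3. The sources used here do not give the build, annotation or strand setting. Multiplied by gene length, 100% of FPKM values were whole steps of 1 read within 0.01 read, which gave the depth and the reads for limma-voom.

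Genes with at least 1 FPKM in 3 libraries were fitted by limma 3.58.1 (R 4.3.3) on log2(FPKM + 1), with 1 mean per group over 12 libraries and trended, robust moderation. The threshold for a call was 0.05 after Benjamini-Hochberg adjustment over all genes tested. A count model was foreseen for counts and not used, since the table holds FPKM. The procedure was run on simulated data in which few genes changed, unlike in these data, so its outcome is not used as support here. Ratios and levels relative to the red cell markers were compared by exact permutation (Python 3.11.15, scipy 1.17.1), sums were not tested, and plots used matplotlib 3.10.9. Replicates differed beyond sampling noise. The members, the 12 lists and tests were chosen with earlier results of these data known. Genes from lists were named by rule: up to 4 called with the smallest p and 2 not called with the highest level for pathway lists, and the 5 most correlated genes per member, of which the text gives a part. Some genes that the rule names are not reported here. Genes named beyond it (such as Pgrmc1, Nfe2l2 and Aco1) were chosen after their values were seen. Alternatives were other scalings (total reads, nuclear reads, quantile), no filter, a pseudocount of 0.1, moderation that is not robust, a replicate block, limma-voom, the compared groups alone, an absolute log2 difference of at least 1, and each library left out.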

Additional observations from a re-analysis of the deposited data

Results flagged for a closer look

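The effect of loading differed between Nb3 alloy and cpTi for 7 of the 8 enzymes, by the limma interaction test adjusted over all 15268 tested genes. The loading effect beside Nb3 alloy minus that beside cpTi, in log2(FPKM + 1), was −5.63 for Alas2 (SE 1.02, adjusted p = 0.00406), −3.68 for Fech (SE 0.37, adjusted p = 0.000105) and −3.36 for Cpox (SE 0.30, adjusted p = 6.24e-05). It was −2.74 for Uros (SE 0.27, adjusted p = 0.000105), −2.43 for Alad (SE 0.33, adjusted p = 0.000741), −2.10 for Urod (SE 0.34, adjusted p = 0.00215) and −1.12 for Ppox (SE 0.23, adjusted p = 0.00747). In each of the 7, every loaded Nb3 alloy library was below all other libraries. Red cell membrane markers gave 15 of 15 calls in the same interaction, and their part in these differences was not tested.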

How the results depend on the processing

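Of the member differences recomputed under the alternatives, 631 values of single enzymes kept their direction and side of the threshold. For 116 counts, ratios and sums the result was taken as kept. Counts were allowed small changes there, such as 7 in place of 8 calls for loading beside Nb3 alloy, and ratios were judged by sign alone. In addition, 2 values of single enzymes passed the threshold that they had missed, and 8 values changed sign (7 of single enzymes and 1 ratio). Both that passed it were Alas1 for material under loading: −0.55 with scaling by total reads (adjusted p = 0.0452) and −0.64 without loaded Nb3 alloy replicate 2. The 8 sign changes were all small differences with no call. Without loaded cpTi replicate 2, loading beside cpTi gave 0.070 for Alas2 and 0.022 for Fech, and leaving out each library in turn gave −0.60 to 0.07 and −0.53 to 0.02. For Alas1 without loading the material difference was 0.0051 by total reads and −0.19 to 0.12 with a library left out. The log2 ratio of Alas2 to Alas1 for loading beside cpTi ran from −0.093 to 0.70.

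Scaling by total reads moved the median difference of all tested genes to −0.17 for loading beside Nb3 alloy and −0.15 for material under loading. Relative to it Alas1 differed by −0.94 and −0.40, against −0.92 and −0.37 as deposited. With an absolute log2 difference of at least 1 also required, 7 members were called for loading beside Nb3 alloy, without Alas1. By the same rule 3475 of all 15268 tested genes were called. Leaving out a library gave 8 calls beside Nb3 alloy, 0 beside cpTi, 7 to 8 for material under loading, 0 without loading and 7 in the interaction. Over all tested genes these fits called 5595 to 6827 for loading beside Nb3 alloy and 0 to 4 for loading beside cpTi. For the other comparisons that number is not given here. Nuclear-read scaling, and list counts without loaded Nb3 alloy replicate 2, were added after seeing the data.

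Same-numbered replicates did not deviate together (correlations of −0.252 to 0.115), so the numbers were not taken to pair libraries. The fit with the replicate block called 8, 0, 7, 0 and 7 members in the 5 comparisons, the same counts as without it, and 6568 of all genes beside Nb3 alloy against 6996. Depth limits Alas2 and Uros most, with as few as 82 and 59 reads in a loaded Nb3 alloy library.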

Other observations

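The skeletal muscle actin Acta1 had 74.8, 328 and 0 FPKM in loaded Nb3 alloy replicates 1, 2 and 3, against 0.134, 0.242 and 1.23 FPKM in static Nb3 alloy replicates. Myoglobin (Mb), the heme protein of muscle, had 6.15, 44.3 and 0 FPKM in the same loaded libraries. Replicate 2, with the highest muscle transcripts, was also the highest of its group for Alas1, Alas2, Hbb-b1 and the mitochondrial share of reads. By smaller margins it was highest for Urod, Cpox and Fech, whereas Alad and Ppox were highest in replicate 1 and Uros in replicate 3. The loaded Nb3 alloy library with no Acta1 or Mb reads, replicate 3, had the lowest Alas2, Alad, Cpox, Ppox and Fech of its group. Alas1 and Urod were lowest in replicate 1 and Uros in replicate 2. Other muscle genes were present in replicate 3, such as Mylpf (3.20 FPKM) and Tnnt3 (2.83 FPKM). A link between muscle transcripts and the enzymes was not tested.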
